A study of Mus musculus with 24 samples.

Results

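The comparison described here sets the libraries of neural progenitor cells given 0.2 µM (+)-JQ1 for 24 h against those given 0.2 µM (−)-JQ1 for 24 h. Its members were chosen by the enantiomer, dose and time in the sample titles, which gave 6 of the 24 libraries of the series, 3 with each enantiomer. The progenitors came from the cortex of C57BL/6 mouse embryos at embryonic day 12, were expanded with B27 supplement and basic fibroblast growth factor, and were moved at passage 3 into differentiation medium. No genetic change was named in the labels, and every library of the series received one of the enantiomers, so the control carries the inactive compound and not vehicle alone. The labels describe independent preparations of progenitors, numbered 1st to 3rd. The p-values below rest on the spread between libraries within groups, pooled over all 24 libraries, and not on that of the 6 compared alone. Poly(A) RNA was primed with random hexamers and sequenced as 50-base single-end reads. The libraries are written (+)1 to (+)3 and (−)1 to (−)3.

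(+)-JQ1 fills the pocket in which BET proteins bind acetylated lysine. These proteins, such as Brd2, Brd3 and the testis protein Brdt, read acetylated histones and bring the elongation kinase P-TEFb to promoters and enhancers. The mirror image of the drug, (−)-JQ1, binds that pocket far more weakly and serves as the control compound. P-TEFb is held inactive by Hexim1 in a complex with the 7SK RNA, and a rise of Hexim1 mRNA is a widely used marker of BET blockade, while Myc is a gene whose transcription often depends on BET proteins. Cortical progenitors taken out of growth factor can form neurons, astrocytes and cells of the oligodendrocyte lineage, and the title of the series asks how BET blockade affects this choice.

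The libraries (−)1 and (+)2 stood apart. The short-RNA gene Mir5105 made up 42.7% and 46.9% of all FPKM (reads scaled by transcript length and library size) in these 2 libraries and 3.01% to 3.28% in the other 4. Lars2 moved with it, at 642 and 735 FPKM in those libraries against 18.9 to 30.8 in the rest. Each was then set against the other libraries of its own group on the log2(FPKM + 1) scale. Of 13591 genes tested other than short RNAs, 28 were at least 2-fold above those in both libraries, and 28 at least 2-fold below. Each result below was also computed without these 2 libraries. A weight was also estimated for each library, lower where its values stray further from its group. The weight was 0.251 in (+)2 and 0.265 in (−)1, but also 0.290 in (−)2 and 0.520 in (−)3. In (+)1 and (+)3 it was 1.63 and 1.42. It was 1.05 to 2.23 in the 12-h libraries, so the pooled spread draws on libraries tighter than (+)2 and the 3 (−) libraries. The p-values from the pooled spread may thus be too small for this comparison. The relative depth of the 24 libraries, read from the steps between low values, lay within a ratio of 1.12, but the absolute depth is unknown. The sum of FPKM outside short RNAs was highest in (−)3, at 524071 against 405417 to 461890 in the other 5. Markers of other cell types were low for microglia, where 12 of 13 genes stayed under 1 FPKM in all 6 libraries and Aif1, C1qa, C1qb, C1qc and Trem2 were listed at 0, and for endothelium, where 9 of 10 did and Cdh5 and Cldn5 were listed at 0.

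Of 13801 genes tested, 4529 were called at an adjusted p under 0.05 (32.8%): 1523 rose with (+)-JQ1 (11%) and 3006 fell (21.8%). These shares are the background for every list below. Large changes leaned further to the lower side, with 103 genes called and at least 2-fold higher (0.746%) and 703 at least 2-fold lower (5.09%). The 3 libraries of one group lay above all 3 of the other in 1620 genes in the higher direction (11.7%) and in 3078 in the lower (22.3%). The median log2 difference of all genes was −0.07, and fold changes are on the log2(FPKM + 1) scale, which understates the change of genes with low values. The split of calls depended on the scaling of the libraries: 33.6% of calls were higher as deposited, 50.4% after median-of-ratios scaling, 53% with equal sums outside short RNAs and 58.3% after removal of a trend with GC content. Those steps moved the median of all genes by 0.09, 0.12 and 0.13, so a small change of one gene or list is best read beside that shift. Without (−)1 and (+)2 there were 4441 calls, 1743 higher and 2698 lower. The 6 libraries alone gave 2056 calls, 426 higher and 1630 lower, and weights per library gave 3363, 1053 higher and 2310 lower. In bulk RNA, fewer cells of a type and less RNA per cell cannot be told apart.

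The genes that mark BET blockade moved in every library. Hexim1, the P-TEFb inhibitor, stood at 51.7, 52.2 and 52.0 FPKM with (+)-JQ1 and at 19.3, 20.4 and 21.8 FPKM with (−)-JQ1. The groups were far apart and neither held an outlying library; the log2 difference was 1.30 ± 0.09 (SE, adjusted p = 3.23e-10). Brd2, one of the proteins the drug occupies, was at 116, 106 and 121 FPKM against 79.1, 76.3 and 77.2 FPKM, a rise of 0.55 ± 0.11 (adjusted p = 0.00041) with no overlap. Brd3 did not pass, at 36.1, 29.3 and 36.2 FPKM against 31.1, 42.6 and 39.8 FPKM (log2 difference −0.15, adjusted p = 0.312). Its groups overlapped, and it passed without (−)1 (−0.28, adjusted p = 0.0395). Brdt did not pass the filter on low values.

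Across 13 tested genes of BET proteins and P-TEFb, 6 rose and 2 fell, with a median of 0.21. Besides Hexim1 and Brd2, the rises were Ccnt2 (0.52), a cyclin T subunit of P-TEFb, Aff1 (0.42) and Aff4 (0.32), scaffolds of the super elongation complex, and Mepce (0.32), the enzyme that caps 7SK. The falls were Hexim2 (−0.65), the second inhibitor of P-TEFb, and Larp7 (−0.55), which binds 7SK. The kinase itself, Cdk9, lay at 0.12 and did not pass. Without (+)1 or without (+)3 only 3 members rose, without (+)2, (+)3, (−)2 or (−)3 each left out in turn 1 fell, and the fit on the 6 libraries alone called 2 higher and 1 lower.

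Myc, a growth-promoting transcription factor, fell. It was at 12.4, 11.7 and 11.6 FPKM with (+)-JQ1 against 33.7, 33.9 and 32.1 FPKM with (−)-JQ1, and both groups were tight. The log2 difference was −1.41 ± 0.14 (adjusted p = 1.05e-07). Mycn, its relative in neural progenitors, was at 1.08, 1.03 and 0.839 FPKM against 2.64, 1.83 and 2.04 FPKM, a fall of 0.67 on the log2 scale. Over the 20 genes of the Myc network and of polyamine synthesis, 4 rose and 6 fell (median 0.05), and the polyamine enzymes went opposite ways. Srm, spermidine synthase, was at 16.1, 18.2 and 17.5 FPKM against 41.7, 32.4 and 48.0 FPKM (−1.18 ± 0.16, adjusted p = 8.19e-06). Odc1, ornithine decarboxylase, which acts a step earlier, was at 190, 159 and 172 FPKM against 103, 97.0 and 136 FPKM (0.64 ± 0.12, adjusted p = 0.000436). The fit on the 6 libraries alone called none of this list higher and 3 lower.

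Among called genes, the largest rises were mostly of 1 kind and the largest falls of many. Among the 12 with the largest rise, 11 were clustered histone genes and the other was Jag1, a Notch ligand. The largest falls were S100a16, a calcium-binding protein of the S100 family, 3110035E14Rik, Cd82, a tetraspanin of the cell surface, Matn4, a matrix protein of oligodendrocyte precursors, Plxnb3, a semaphorin receptor, Scrg1, Enpp6, a choline phosphodiesterase of newly formed oligodendrocytes, Chadl, 9630013A20Rik, Lims2, Bfsp2 and Cryab, a small heat shock protein. S100a16 was at 1.95, 3.59 and 1.63 FPKM against 65.8, 43.1 and 127 FPKM, a log2 difference of −4.46 ± 0.32 (adjusted p = 2.15e-09). Cd82 was at 1.75, 1.37 and 1.12 FPKM against 28.3, 27.1 and 31.1 FPKM, a difference of −3.64 ± 0.14 (adjusted p = 8.68e-14). In both genes every (+) library was more than 10-fold below every (−) library. 3110035E14Rik was at 4.46, 3.56 and 4.71 FPKM against 78.5, 114 and 103 FPKM (−4.24 ± 0.15), and Cryab at 2.30, 1.52 and 1.87 FPKM against 26.3, 22 and 19.6 FPKM (−3.03).

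**Figure D1:**
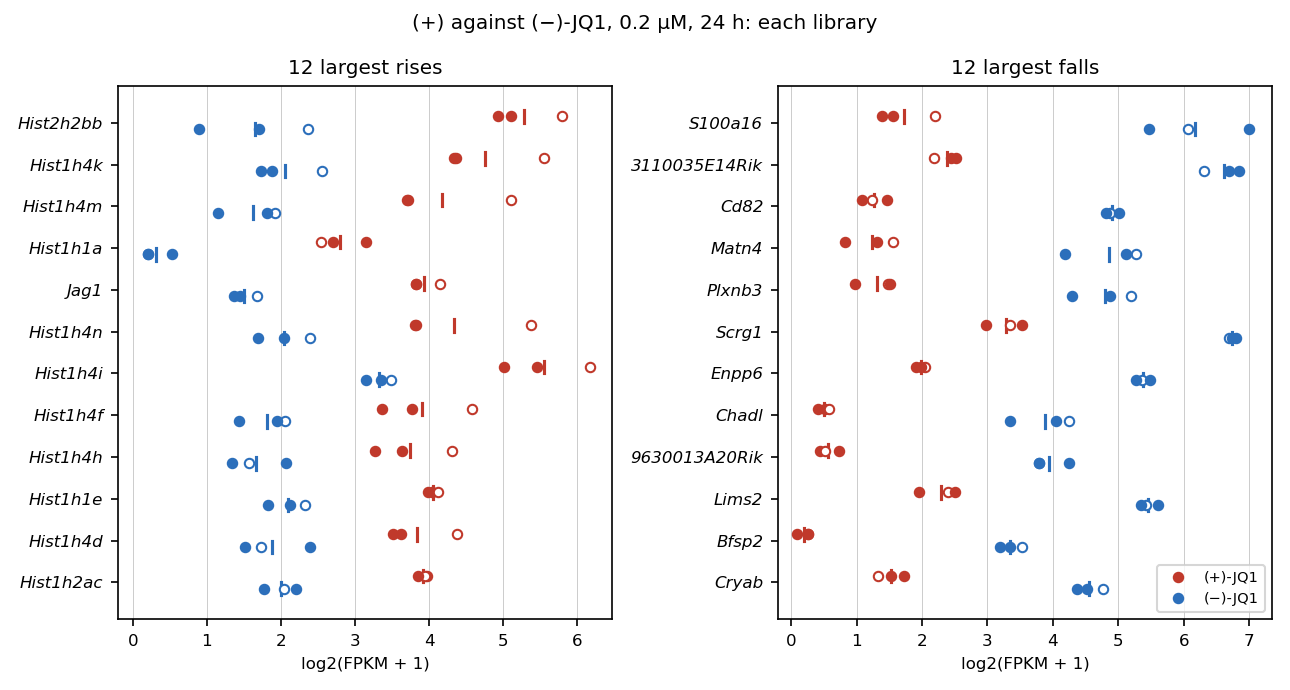
FPKM on a log axis in each of the 6 libraries for the 12 called genes that rose most and the 12 that fell most; points are libraries, bars the mean of 3, and open circles the library of each group with high Mir5105. The groups do not overlap in any gene shown, and (+)2 is the highest library in most of the histone genes.

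Clustered histone genes rose together. The replication-dependent histone genes supply the core and linker histones of new chromatin in S phase, and most of their mRNA ends in a stem loop in place of a poly(A) tail, so a poly(A)-selected library holds a part of it. The levels below are of that part, and a change in its share of all histone mRNA was not tested. All 49 listed passed the filter, 43 rose and none fell, with a median log2 difference of 1.37 beside −0.07 for all genes. Their summed level was 837 to 1351 FPKM with (+)-JQ1 and 279 to 399 FPKM with (−)-JQ1. Over every clustered histone gene of the files that passed the filter, listed or not, each class took part: the rise was called in 5 of 5 genes of the linker histone H1, 17 of 19 of H2B, 12 of 12 of H3, 11 of 13 of H4 and 10 of 18 of H2A. The summed H4 level was 159, 353 and 149 FPKM against 44.8, 37.2 and 34.2 FPKM, a ratio of means of 5.69, and the summed H2A level was 263, 352 and 249 FPKM against 122, 144 and 184 FPKM, a ratio of 1.92. H1, H3 and H2B lay between, with ratios of 3.35, 2.88 and 2.57. Genes of one class are near-identical copies, above all those of H4, and reads may have been split among them, so values of single H4 genes are uncertain.

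Single histone genes differed in their control level. Hist2h2bb was at 29.5, 54.4 and 33.5 FPKM with (+)-JQ1 and at 4.14, 0.857 and 2.25 FPKM with (−)-JQ1, the largest rise of the comparison by the rule for named genes (3.63 ± 0.31, adjusted p = 2.91e-08). Hist1h1a, a linker histone, was at 5.55, 4.85 and 7.87 FPKM against 0.157, 0.152 and 0.449 FPKM (2.49 ± 0.28, adjusted p = 8.86e-07), and it was under 0.5 FPKM in every (−) library. Hist1h2ac was at 14.7, 14.4 and 13.4 FPKM against 3.14, 2.41 and 3.61 FPKM (1.91 ± 0.17). In (+)2, the median histone gene lay 1.89 above its (−) mean on the log2 scale, beside 1.06 and 1.01 in (+)1 and (+)3, so the library with high Mir5105 was the highest and the other 2 also lay apart from the controls. Hist1h2bk and Hist1h2bn were among the 28 genes that were high within their own group in both (−)1 and (+)2. Without these 2 libraries 41 histone genes still rose, and the fit on the 6 libraries alone called 36. The 6 members that did not pass were Hist1h2ad, Hist1h2ae, Hist1h2ag, Hist2h4, Hist3h2ba and Hist4h4, with differences from 0.09 for Hist4h4 to 0.76 for Hist2h4.

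The promoter of Hist1h1a is shown as the one with the largest rise among list members whose 250 bases before the start hold both elements searched. It lies at chr13:23763418-23763667 on the plus strand of GRCm38 (RefSeq, under the symbol H1f1), and capitals mark a CCAAT box that ends 52 bases before the start and a TATAAA box that ends 28 bases before it.
Hist1h1a: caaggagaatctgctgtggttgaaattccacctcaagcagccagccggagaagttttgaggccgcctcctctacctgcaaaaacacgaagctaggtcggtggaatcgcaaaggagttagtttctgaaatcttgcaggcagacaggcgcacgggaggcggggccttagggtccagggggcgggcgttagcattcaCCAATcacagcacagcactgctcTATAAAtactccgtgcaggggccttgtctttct
CCAAT, searched on both strands in the 300 bases around the start (250 before and 50 after), was found in 37 of 44 histone promoters in the table (84.1%), beside 40.0% of the 10036 tested genes with a promoter there. TATAAA, searched likewise, was found in 24 of 44 (54.5%) beside 6.79%. Both elements are long-known features of histone promoters, and a match of letters does not show that a factor binds.

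Genes of DNA replication fell while the histone genes rose. Of 39 listed S-phase genes, 36 passed the filter; 21 fell and none rose (median −0.50), with 18 falls and 2 rises after median-of-ratios scaling. Mcm5, a subunit of the replicative helicase, was at 1.20, 1.19 and 0.930 FPKM against 7.69, 4.71 and 4.73 FPKM, a log2 difference of −1.65 ± 0.21 (adjusted p = 4.73e-06). Every (+) library was below every (−) library, and the levels were low throughout. Rrm2, the small subunit of ribonucleotide reductase, fell by 1.60 and Mcm3 by 1.59. Pcna, the sliding clamp, was at 94.1, 86.0 and 83.5 FPKM against 75.6, 73.1 and 65.0 FPKM; its groups did not overlap, in the direction of the histone genes, but it did not pass (0.30, adjusted p = 0.0558). Slbp, which binds the stem loop of histone mRNA, lay at 0.29 and did not pass either. Without (−)1 and (+)2, 16 of the list fell, and the 6 libraries alone gave 15.

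Genes of G2 and mitosis were lower too, at low levels. 37 of 38 listed passed the filter, 23 fell and none rose (median −0.67), and in 32 the groups did not overlap in the lower direction. Their summed level was 70.2 to 78.4 FPKM with (+)-JQ1 and 116 to 132 FPKM with (−)-JQ1. Top2a, the topoisomerase of dividing cells, was at 2.12, 1.12 and 1.11 FPKM against 7.04, 9.18 and 4.48 FPKM (−1.67 ± 0.40, adjusted p = 0.00328). Mki67, a proliferation marker, was at 0.466, 0.276 and 0.124 FPKM against 1.91, 3.23 and 1.64 FPKM (−1.32 ± 0.30, adjusted p = 0.00192), and Birc5, survivin, at 1.32, 1.08 and 1.01 FPKM against 3.81, 4.33 and 4.6 FPKM (−1.29 ± 0.29, adjusted p = 0.00187). In these genes no (+) library reached the lowest (−) library. The count was fragile: it was 9 without (−)1 and (+)2, 12 without (+)3, 14 without (+)1, (−)1 or (−)2 each left out in turn, and 2 with weights per library, while the 6 libraries alone gave 23.

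Promoters of Mcm5 and Top2a are shown as those with the largest fall in their lists among promoters that hold the elements searched. Mcm5 is at chr8:75109259-75109508 on the plus strand and Top2a at chr11:99024190-99024439 on the minus strand (GRCm38, RefSeq, 250 bases before the start). In Mcm5, capitals mark a pair of overlapping TTTNNCGC matches on opposite strands, an E2F-like element, and 2 CCAAT boxes. In Top2a they mark 2 TTTGAA matches (the CHR element of mitotic genes) and 6 CCAAT boxes, which read ATTGG or TTCAAA where they lie on the other strand.
Mcm5: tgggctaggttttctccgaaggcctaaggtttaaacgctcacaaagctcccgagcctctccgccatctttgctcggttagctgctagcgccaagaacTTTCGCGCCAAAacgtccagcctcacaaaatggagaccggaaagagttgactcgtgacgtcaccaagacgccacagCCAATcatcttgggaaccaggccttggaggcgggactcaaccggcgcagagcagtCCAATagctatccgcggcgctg
Top2a: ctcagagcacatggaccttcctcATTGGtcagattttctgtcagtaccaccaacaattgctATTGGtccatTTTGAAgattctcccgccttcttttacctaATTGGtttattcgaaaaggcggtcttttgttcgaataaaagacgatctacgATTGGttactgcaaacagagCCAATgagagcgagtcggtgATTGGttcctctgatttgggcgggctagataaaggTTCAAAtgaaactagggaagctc
Over the 300-base windows, TTTGAA was found in 22 of 31 G2 and mitosis promoters (71.0%) beside 11.5% of all, and CCAAT in 25 of 31 (80.6%) beside 40.0%. TTTNNCGC was found in 11 of 29 S-phase promoters (37.9%) beside 9.02%. TTTGAA was also present in 43.2% of the histone promoters, whose genes moved the other way.

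Among G1 cyclins, CDKs and inhibitors, 3 rose and 10 fell of 23 tested. Ccnd1, the cyclin D that growth factors induce, was at 3.19, 2.42 and 2.84 FPKM against 7.49, 8.62 and 6.05 FPKM (−1.13). Inhibitors of CDKs were lower as well: Cdkn1c fell by 1.37, and Cdkn1a, the p53-induced inhibitor p21, was at 8.04, 6.74 and 8.28 FPKM against 15.9, 17.4 and 15.3 FPKM (−0.98, adjusted p = 0.0362). The groups of Cdkn1a did not overlap, but its call was lost when any 1 of the 6 libraries was left out (adjusted p of 0.0646 to 0.0978). Without (+)3 or without (−)1, 6 of the list fell in place of 10. The p53 and apoptosis list was split, with 7 higher and 7 lower of 32. Its largest falls were Fas (−1.23), a death receptor, and Bak1 (−1.23), a pore-forming protein of mitochondria, and its largest rise was Sesn3 (0.97), a stress-induced sestrin. Leaving out (−)3 left 3 higher and 4 lower, and leaving out (+)1 left 4 higher.

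**Figure D2:**
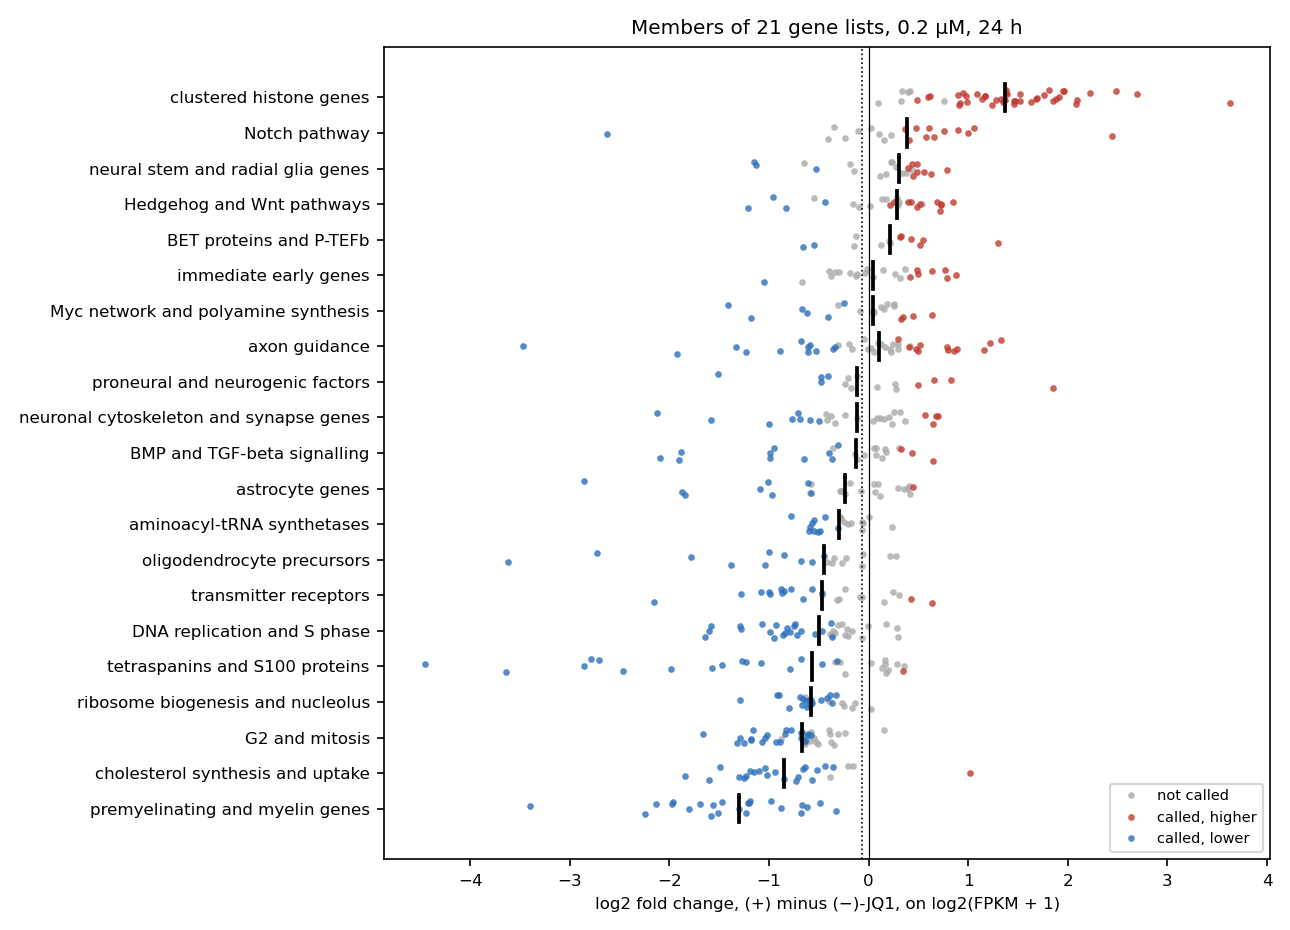
Log2 difference, (+) minus (−)-JQ1 at 0.2 µM and 24 h, for each tested member of the main gene lists; points are genes, black bars the median of a list, and the dotted line the median of all genes tested (−0.07). Histone genes lie to the right, and myelin, cholesterol, cell cycle and ribosome biogenesis genes to the left.

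Genes that make ribosomes fell. Of 26 genes of ribosome biogenesis and the nucleolus, 19 fell and none rose (median −0.58). Rrs1, an assembly factor of the large subunit, was at 10.2, 9.74 and 8.66 FPKM against 24.3, 22.1 and 27.8 FPKM (−1.29 ± 0.12, adjusted p = 3.22e-08), and no library came near the other group. Rrp9, a processing factor of ribosomal RNA, fell by 0.92, Gnl3, nucleostemin, by 0.90, Fbl, fibrillarin, by 0.79 and Npm1, nucleophosmin, by 0.69. Ncl, nucleolin, lay at −0.40 and did not pass (adjusted p = 0.157). The 6 libraries alone gave 8 falls and weights per library 12. Of 20 cytosolic aminoacyl-tRNA synthetases, which load tRNAs, 10 fell and none rose (median −0.30). The largest fall was that of Vars (−0.78). The 6 libraries alone called 2, and Vars was not among them (adjusted p = 0.116).

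Nop2, a methyltransferase of ribosomal RNA, is the called member with the largest fall whose 250 bases before the start hold CACGTG, the E-box that Myc binds. It was at 11.3, 11.9 and 9.23 FPKM against 15.6, 14.3 and 14.1 FPKM (−0.42 ± 0.12, adjusted p = 0.0136), with no overlap of the groups. Its promoter lies at chr6:125131633-125131882 on the plus strand (GRCm38, RefSeq), and capitals mark the E-box.
Nop2: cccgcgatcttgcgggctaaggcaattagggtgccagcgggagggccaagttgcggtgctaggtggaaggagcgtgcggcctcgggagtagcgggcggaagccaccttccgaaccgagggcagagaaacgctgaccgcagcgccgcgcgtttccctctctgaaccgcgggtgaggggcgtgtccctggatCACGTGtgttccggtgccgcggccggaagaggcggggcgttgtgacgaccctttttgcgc
CACGTG was found in 6 of 22 promoters of ribosome biogenesis genes (27.3%), in 4 of 13 of tRNA synthetases (30.8%), in 0 of 44 of histones and in 10.3% of all, in windows of 300 bases on both strands. It was found in 11.5% of all genes called lower, in 8.08% of those at least 2-fold lower and in 8.99% of those called higher. Among immediate early genes, of which 7 rose and 1 fell, it was found in 5 of 19 (26.3%). A part of Myc in these falls was not tested.

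For the proteins of the ribosome and of the respiratory chain, the share that fell was at or near that of all genes (21.8%), and the counts hung on single libraries. Of 78 ribosomal protein genes 17 fell and none rose (median −0.33). The count was 2 without (+)3, 4 without (−)3, 7 without (+)1, 36 without (+)2, 43 without (−)2 and 32 without both (−)1 and (+)2, and the 6 libraries alone gave 0, with a scaling by median of ratios giving 7. Rpl35, the called member with the largest fall (−0.63), was at 698, 595 and 604 FPKM against 759, 979 and 1252 FPKM. Of 66 genes of the respiratory chain and ATP synthase 18 fell and none rose (median −0.28), with 2 without (−)3, 3 without (+)3, 10 without (+)1, 33 without (−)2, 7 after median-of-ratios scaling, and 0 in the 6 libraries alone. In (−)1 and (−)3 the median ribosomal protein gene lay 0.10 and 0.22 above its (−) mean, and in (−)2 it lay 0.30 below it, close to (+)1 (−0.35). At 0.5 µM and 24 h, 2 ribosomal protein genes were called, and at 0.2 µM and 12 h 1.

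Genes of cholesterol synthesis and uptake fell as a group. Of 27 listed, 25 passed the filter, 21 fell and 1 rose (median −0.85), and their summed level was 657 to 720 FPKM with (+)-JQ1 against 1148 to 1424 FPKM with (−)-JQ1. Fdps, farnesyl diphosphate synthase, was at 25.8, 26.7 and 25.5 FPKM against 100, 70.1 and 125 FPKM (−1.84 ± 0.20, adjusted p = 5.54e-07). Idi1, isopentenyl diphosphate isomerase, was at 27.4, 15.5 and 29.5 FPKM against 50.0, 70.1 and 86.2 FPKM (−1.49 ± 0.28, adjusted p = 0.000384). The (+) libraries were tight in Fdps, and in Idi1 (+)2 was the lowest. The single rise was Abca1, which exports cholesterol: 46.1, 52.8 and 39.3 FPKM against 23.8, 29.8 and 15.2 FPKM (1.02 ± 0.23, adjusted p = 0.00171). Hmgcs1 (−1.04), an enzyme of the early steps, and Insig1 (−1.15), which holds the regulator SREBP in the endoplasmic reticulum, fell too. Srebf2, which encodes the SREBP of cholesterol genes, lay at −0.20 and did not pass, and Srebf1 fell by 0.73. Without (−)1 and (+)2, 17 members fell, and the 6 libraries alone gave 14.

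The Idi1 promoter is shown as the one with the largest fall in this list among those that hold CCAAT, which was found in 16 of 18 promoters of the list (88.9%) beside 40.0% of all. The sterol regulatory element, searched as TCACNCCAC on both strands, was found in 1 of 18 (5.56%) beside 1.06% of all. The Idi1 promoter lies at chr13:8885356-8885605 on the plus strand (GRCm38, RefSeq), and both CCAAT boxes, in capitals, are on the other strand and read ATTGG.
Idi1: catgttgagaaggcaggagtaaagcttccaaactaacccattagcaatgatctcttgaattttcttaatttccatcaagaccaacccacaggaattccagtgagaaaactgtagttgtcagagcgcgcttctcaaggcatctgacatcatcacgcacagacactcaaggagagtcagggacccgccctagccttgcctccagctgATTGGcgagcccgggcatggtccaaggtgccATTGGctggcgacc
The promoters of premyelinating and myelin genes held CCAAT in 33.3% of 18.

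In the glycolysis list, 3 rose and 8 fell of 28. Txnip, which restrains glucose uptake, was at 48.6, 46.9 and 35.8 FPKM against 13.3, 10.2 and 9.86 FPKM (1.89 ± 0.15, adjusted p = 7.67e-09), with every (+) library more than 2-fold above every (−) library. The enzymes with the largest falls were Tpi1 (−1.26), triose phosphate isomerase, and Ldha (−0.91), lactate dehydrogenase A. Without (−)1, 5 of the list rose.

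**Figure D3:**
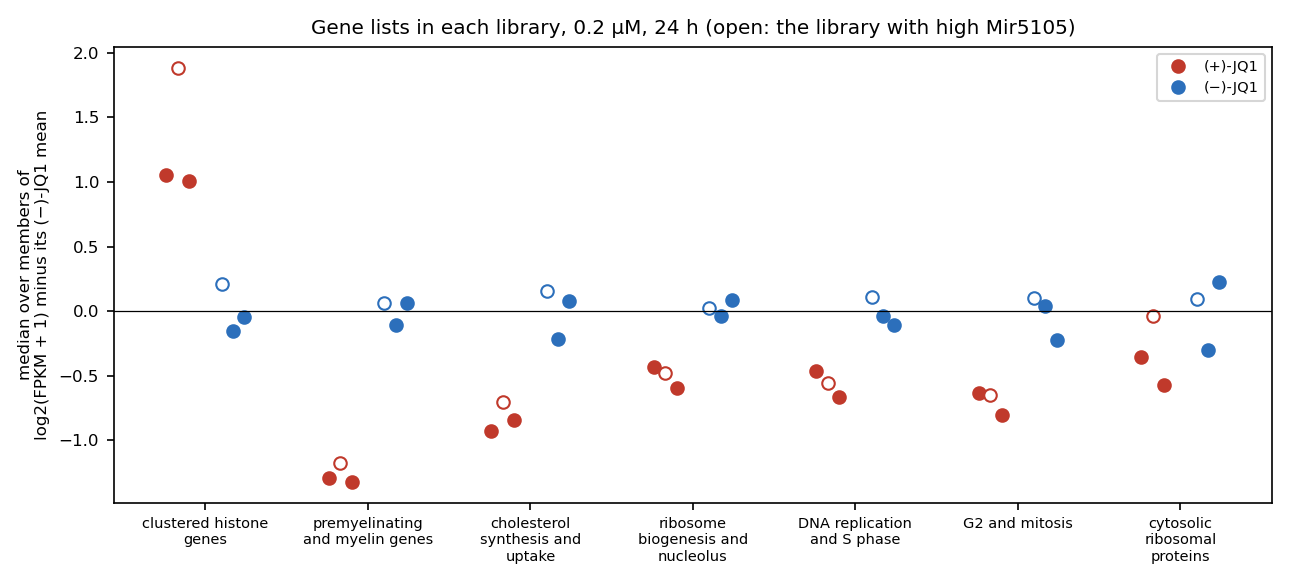
For 7 gene lists, the median over members of log2(FPKM + 1) minus the mean of the (−) libraries, in each of the 6 libraries; open circles are the library of each group with high Mir5105. The (+) and (−) libraries separate in 6 lists, and in the ribosomal proteins (+)2 (−0.04) lies above (−)2 (−0.30).

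Genes of the oligodendrocyte lineage were lower, both among precursor genes and among those of later steps. Olig2, the transcription factor that defines the lineage, was at 247, 231 and 262 FPKM against 279, 277 and 307 FPKM; the groups did not overlap, but it did not pass (−0.22, adjusted p = 0.132). Sox10, which acts with it, was at 56.4, 69.0 and 73.0 FPKM against 98.7, 76.4 and 91.1 FPKM (−0.42, adjusted p = 0.112), and Olig1 lay at −0.06 (adjusted p = 0.899). Of 19 precursor genes 10 fell and none rose (median −0.45). Matn4 was at 0.763, 1.94 and 1.5 FPKM against 37.4, 17.1 and 33.8 FPKM (−3.62 ± 0.22). Gpr17, a receptor of precursors that are about to differentiate, was at 44.3, 46.8 and 66.1 FPKM against 373, 340 and 329 FPKM (−2.73 ± 0.21, adjusted p = 3.74e-09). Pdgfra, the receptor for the mitogen of early precursors, changed less, at 26.2, 29.6 and 23.3 FPKM against 43.2, 40.1 and 35.6 FPKM (−0.57 ± 0.10, adjusted p = 0.000236). Both Matn4 and Gpr17 were at least 4-fold lower in each (+) library than in any (−) library, while the 3 (+) values of Pdgfra lay nearer to its controls.

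Of 26 premyelinating and myelin genes, 23 passed the filter, and those 23 fell, with a median of −1.31. Mog and Ermn were among those that did not pass. The summed level of the list was 838 to 1043 FPKM with (+)-JQ1 and 2087 to 2636 FPKM with (−)-JQ1. Enpp6 was at 2.75, 3.13 and 2.96 FPKM against 40.2, 43.8 and 37.7 FPKM (−3.40 ± 0.13, adjusted p = 1.86e-13), and Tnr, tenascin-R, was at 8.08, 11.1 and 11.3 FPKM against 71.0, 47.7 and 40.3 FPKM (−2.25 ± 0.21). The spread within the groups was small beside the gap. Opalin, a late marker of oligodendrocytes, was listed at 0 in all 3 (+) libraries and at 2.48, 2.16 and 6.74 FPKM in the (−) libraries. Gm98 (Myrf), the transcription factor that drives myelin genes, was at 12.5, 14.9 and 14.6 FPKM against 40.3, 28.8 and 40.1 FPKM (−1.31). Mbp, a main protein of myelin, followed, at 89.1, 97.2 and 36.5 FPKM against 220, 207 and 306 FPKM (−1.80 ± 0.30). Among the (+) libraries Mbp was lowest in (+)3. The smallest fall was that of Ugt8a (−0.33), the enzyme of galactocerebroside. Without (−)1 and (+)2, 22 of these genes fell; the exception was Mobp (adjusted p = 0.0848).

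Astrocyte genes did not move as one. Of 25 tested, 8 fell and 1 rose (median −0.23). S100b was at 4.19, 5 and 6.41 FPKM against 33.6, 39.5 and 61.3 FPKM (−2.85 ± 0.21), Aqp4, the water channel of astrocyte endfeet, at 60.2, 45.8 and 64.6 FPKM against 206, 250 and 168 FPKM (−1.85 ± 0.19), and Mlc1 fell by 1.88. S100b is also made by oligodendrocyte precursors. Gfap, the astrocyte filament, was at 235, 294 and 271 FPKM against 513, 474 and 583 FPKM (−0.97 ± 0.13, adjusted p = 6.58e-06), and its groups did not overlap. Sox9, a glial fate factor, rose (0.44, adjusted p = 0.00715), while Slc1a3, a glutamate transporter, lay at 0.40, Aldh1l1 at −0.18 and Apoe at 0.06, none of which passed. Without (+)2 3 members rose, and without (+)3 or (−)1 2 did.

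Progenitor genes held more rises than falls. Of 22 neural stem and radial glia genes 8 rose and 3 fell (median 0.30), although the 6 libraries alone called 1 higher and 2 lower. Sox1, an early neural factor, was at 44.5, 38.1 and 47.7 FPKM against 25.4, 23.4 and 25.2 FPKM (0.79 ± 0.14). Sox2 was at 323, 254 and 276 FPKM against 223, 310 and 260 FPKM (0.11, adjusted p = 0.57), Nes, nestin, at 107, 88.8 and 97.3 FPKM against 60.6, 76.6 and 79.3 FPKM (0.44, adjusted p = 0.0521), and Pax6 lay at 0.38 (adjusted p = 0.0648). Of these 3 the groups overlapped in Sox2 and did not in Nes. The falls included Prom1 (−1.15) and Tnc (−1.13), a matrix protein of radial glia.

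Neuronal genes split. Among 15 tested proneural and neurogenic factors, 4 rose and 4 fell. Insm1, a transcription factor of newborn neurons, was at 30.2, 38.7 and 34.6 FPKM against 12.3, 5.68 and 9.57 FPKM (1.85 ± 0.20), with no overlap, while Rnd2, a small GTPase of migrating neurons, was at 91.0, 177 and 91.2 FPKM against 383, 182 and 500 FPKM (−1.51). In the interneuron list 3 rose and 5 fell of 17; the transcription factor Dlx2 rose by 0.84 (adjusted p = 0.04), a call lost without any 1 library except (−)1, and the later markers Npy and Calb2 fell by 2.15 and 1.84. Leaving out any of (+)1, (+)2, (+)3 or (−)2 left 1 rise there. Without (+)1, 2 proneural factors rose in place of 4, and without (+)2, 2 fell.

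Among 27 tested genes of the neuronal cytoskeleton and synapse, 4 rose and 8 fell (median −0.12). Tubb3, the tubulin of early neurons, was at 165, 165 and 182 FPKM against 106, 79.6 and 142 FPKM (0.68, adjusted p = 0.0058), and each (+) library was above each (−) library. Its call was lost in the 6 libraries alone (adjusted p = 0.0863). Dcx, doublecortin of migrating neurons, was at 31.1, 22.8 and 41.6 FPKM against 38.2, 41.0 and 41.9 FPKM (−0.37, adjusted p = 0.107), and passed without (+)3 (−0.58, adjusted p = 0.0152). Gap43, the growth cone protein, was at 6.05, 4.21 and 6.31 FPKM against 16.9, 35.0 and 33.2 FPKM (−2.12), and Sv2a, a protein of synaptic vesicles that precursors of oligodendrocytes also make, fell by 1.59. Without (+)3, 2 of the list rose in place of 4.

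Ligands and receptors of the Notch pathway were among the genes that rose. Of 20 tested, 11 rose and 1 fell (median 0.39); the 6 libraries alone called 4 and 1. Jag1 was at 13.2, 16.8 and 13.1 FPKM against 2.20, 1.73 and 1.57 FPKM (2.44 ± 0.13, adjusted p = 1.42e-11), at least 5-fold apart in every pair of libraries. The ligand Dll1 rose by 0.90, and of the receptors Notch2 was at 20.7, 24.0 and 19.3 FPKM against 11.7, 11.1 and 8.10 FPKM (0.99) and Notch1 rose by 0.76. Of the targets, Hes5 was at 110, 248 and 110 FPKM against 98.8, 46.7 and 70.5 FPKM (1.06, adjusted p = 0.0046), its groups separate but with (−)1 close to the lower (+) libraries, and its call was lost in the 6 libraries alone (adjusted p = 0.105) and with weights per library (0.0535). Hes1, another target, lay at 0.22 and did not pass. The fall was that of Mfng, a glycosyltransferase that modifies Notch: 0.411, 0.377 and 0.428 FPKM against 10.0, 5.17 and 8.53 FPKM (−2.62 ± 0.19). Without (+)2 or (−)2, 3 or 4 members fell.

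In BMP and TGF-beta signalling, 3 rose and 10 fell of 24 tested; the 6 libraries alone called 0 and 5. The ligand Bmp4 was at 2.29, 2.40 and 3.38 FPKM against 12.3, 11.2 and 14.7 FPKM (−1.90). The Id genes are immediate targets of BMP signals. Id3 was at 14.5, 34.8 and 17 FPKM against 140, 54.5 and 98.6 FPKM (−2.09), Id1 fell by 1.89 and Id2 by 0.99, while Id4 lay at −0.11 and did not pass. The receptor Bmpr2 rose by 0.65, and without (−)1, 5 of the list rose.

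Other signalling lists held calls in both directions, with falls at shares near that of all genes. Of 18 cytokine and JAK-STAT genes 4 rose and 5 fell: the shared receptor Il6st rose by 0.64 and Stat3 lay at 0.10. Of 21 FGF and ERK genes 4 rose and 5 fell, with Fgfr1 (0.82) and the feedback inhibitor Errfi1 (0.91) higher and the ligand Fgf1 (−2.08) lower. Fgfr1 did not pass in the 6 libraries alone (adjusted p = 0.082). Of 25 Hedgehog and Wnt genes 11 rose and 4 fell. Ptch1, receptor and target of Hedgehog, was at 43.5, 51.9 and 47.5 FPKM against 34.1, 27.2 and 19 FPKM (0.84), Ctnnb1, beta-catenin, rose by 0.72 and the ligand Wnt7b fell by 1.21. The rises of this list numbered 6 without (+)1 and 7 without (−)3, those of JAK-STAT 2 without (+)1 and those of FGF 2 without (−)3. The 6 libraries alone called 1 higher and 2 lower in the cytokine and JAK-STAT list, 1 and 4 in the FGF and ERK list, and 4 and 3 in the Hedgehog and Wnt list.

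Stress and immediate early genes held calls in both directions. Of 23 immediate early genes 7 rose and 1 fell. Btg1, an antiproliferative factor, rose by 0.88 and Ier2 by 0.79. The call of Ier2 was lost without (+)2 (adjusted p = 0.0657), without (−)2 (0.0684), in the 6 libraries alone (0.127) and with weights per library (0.112). The nuclear receptor Nr4a1 fell by 1.05, while Fos lay at −0.37 and Egr1 at 0.27, and neither passed. Without (−)2 or (−)3, 2 of the list fell, and the 6 libraries alone called 2 higher and 2 lower. Of 26 genes of the integrated stress and unfolded protein responses 3 rose and 3 fell. Ern1, the sensor IRE1, rose by 0.83, and Vldlr fell by 0.77, while Atf4 lay at −0.12 and Ddit3 at 0.20 and did not pass. In the 6 libraries alone the call of Ern1 was lost (adjusted p = 0.0547). Without (−)1, 6 of this list rose. Of 20 interferon and MHC genes 4 rose and 7 fell: the class I genes H2-D1 (0.90) and H2-K1 (0.62) rose, and Tap2, a peptide transporter for class I, was at 0.549, 0.653 and 0.229 FPKM against 2.47, 1.92 and 2.53 FPKM (−1.17). The rise of H2-D1 did not pass in the 6 libraries alone (adjusted p = 0.128).

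Lists of surface, matrix and channel genes differed in their counts. In the tetraspanins and S100 proteins, 1 rose and 16 fell of 28 (median −0.57); after S100a16, Cd82 and S100b the largest falls were S100a4 (−2.78) and S100a6 (−2.70), and 6 rose without (−)1 and 0 without (−)2. The axon guidance list split, with 12 higher and 12 lower of 40. Plxnb3, a receptor made by oligodendrocytes, was at 0.964, 1.78 and 1.84 FPKM against 35.7, 18.6 and 28.4 FPKM (−3.47 ± 0.20), and its ligand Sema5a was at 2.68, 2.48 and 2.49 FPKM against 12.3, 12.7 and 12.4 FPKM (−1.92). The rises were led by the ephrin Efnb2, at 26.4, 24.3 and 26.3 FPKM against 10.1, 9.33 and 9.43 FPKM (1.33), and Plxna2 (1.22). In the matrix list 2 rose and 9 fell of 33, near the share of all genes, with the largest falls in Col9a1 at 0.0909, 0.214 and 0.189 FPKM against 7.91, 5.16 and 6.47 FPKM (−2.67) and Mmp14 (−1.64), a membrane protease. Its rises numbered 0 to 5 as single libraries were left out, with 5 without (−)1, 1 without (+)1 or (−)2, and 0 without (+)2 or (−)3.

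Of 29 voltage-gated channel genes 3 rose and 11 fell, and the largest fall was that of the potassium channel Kcnk2 (−2.17). Of 23 transmitter receptors 2 rose and 12 fell (median −0.47). Grin3a, an NMDA receptor subunit, was at 1.01, 1.59 and 1.36 FPKM against 11.7, 9.56 and 7.04 FPKM (−2.15), and the nicotinic subunit Chrna4 fell by 1.28. Without (+)1, 1 of the list rose.

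Some markers of other cell types moved with the enantiomer. Of 12 pericyte and fibroblast genes, 8 passed the filter and 7 fell; their summed level was 83.5 to 118 FPKM with (+)-JQ1 and 209 to 287 FPKM with (−)-JQ1, and Kcnj8 was listed at 0. Acta2, smooth muscle actin, was at 63.7, 42.2 and 46.5 FPKM against 145, 115 and 122 FPKM (−1.32). Of the ependymal genes 4 passed and 3 fell, the summed level being 23.1 to 24.0 FPKM against 36.5 to 52.2 FPKM, with Tmem212 listed at 0; Foxj1, the factor of motile cilia, was at 6.73, 7.62 and 6.65 FPKM against 29.8, 21.3 and 18.5 FPKM (−1.57). The endothelial sum was 2.28 to 3.10 FPKM against 3.92 to 7.14 FPKM; Kdr, the 1 endothelial gene tested, fell (−0.88, adjusted p = 0.0163), a call lost without (−)1 and (+)2 (adjusted p = 0.133), without (−)1 alone (0.0751) and without (+)3 (0.055). The microglial sums, 1.89 to 3.29 FPKM and 1.21 to 4.07 FPKM, overlapped, and the erythroid genes stayed under 0.2 FPKM in sum. The part of such cells in the falls of matrix and other shared genes was not tested.

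The same contrast at the higher dose and at the earlier time, in libraries it does not share, gave mostly overlapping calls. At 0.5 µM and 24 h 1893 genes rose (13.7%) and 3380 fell (24.5%), 38.2% in all. Of the genes that rose at 0.2 µM, 1212 also rose at 0.5 µM, 79.6% of the one list and 64.0% of the other, and 2537 fell at both (84.4% and 75.1%); 0 were called in opposite directions. Among the 806 genes called and at least 2-fold changed at 0.2 µM, the median ratio of the change at 0.5 µM to that at 0.2 µM was 1.14. Choosing genes by that change favours overestimates of it, so this ratio and the one at 12 h below lean low. The ratio of 0.85 at 12 h does not by itself show a weaker effect. At 0.2 µM and 12 h 1136 genes rose (8.23%) and 2710 fell (19.6%), 27.9% in all, with 868 rises shared (57.0% and 76.4%), 2173 falls shared (72.3% and 80.2%), and 1 gene, Pcp4, called in opposite directions; the median ratio was 0.85.

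The difference between the doses was itself called in 40 genes (0.29%), 39 with a larger fall or smaller rise at 0.5 µM (0.283%) and 1 the other way (0.00725%). Genes of the oligodendrocyte lineage were among them. Gpr17 averaged 347 ± 22.5 FPKM with (−)-JQ1 and 52.4 ± 11.9 FPKM with (+)-JQ1 at 0.2 µM (SD, n = 3 each), and 365 ± 23.3 FPKM and 8 ± 2.43 FPKM at 0.5 µM. Its control level was alike at both doses, and the difference of effects was −2.65 ± 0.30 (adjusted p = 0.000128). Enpp6 averaged 2.95 ± 0.191 FPKM with (+)-JQ1 at 0.2 µM and 0.212 ± 0.0921 FPKM at 0.5 µM, against 40.6 ± 3.06 FPKM and 47.4 ± 8.41 FPKM with (−)-JQ1 (difference of effects −1.91 ± 0.19, adjusted p = 2.6e-05). Tnr and Gm98 differed by −2.12 and −1.58. In all, 6 of the 23 tested premyelinating and myelin genes, 3 of the 19 precursor genes and 1 astrocyte gene were called for the difference, and none of the histone, cell cycle, cholesterol or ribosome biogenesis lists. Neither Jag1 (difference 0.55, adjusted p = 0.44), Hexim1 (0.37, adjusted p = 0.44) nor Myc (−0.73, adjusted p = 0.179) passed, and nor did Sox10 (−0.95, adjusted p = 0.285) or Olig2 (−0.60, adjusted p = 0.175), which fell at 0.5 µM by 1.37 and 0.82. The single difference in the other direction, Snora65, a short RNA, arose in the controls: its (−) mean was 110 ± 46.4 FPKM at 0.2 µM and 22.8 ± 0.969 FPKM at 0.5 µM. With the 12 libraries of these 4 groups alone 3 genes passed, and 62 did without (−)1.

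**Figure D4:**
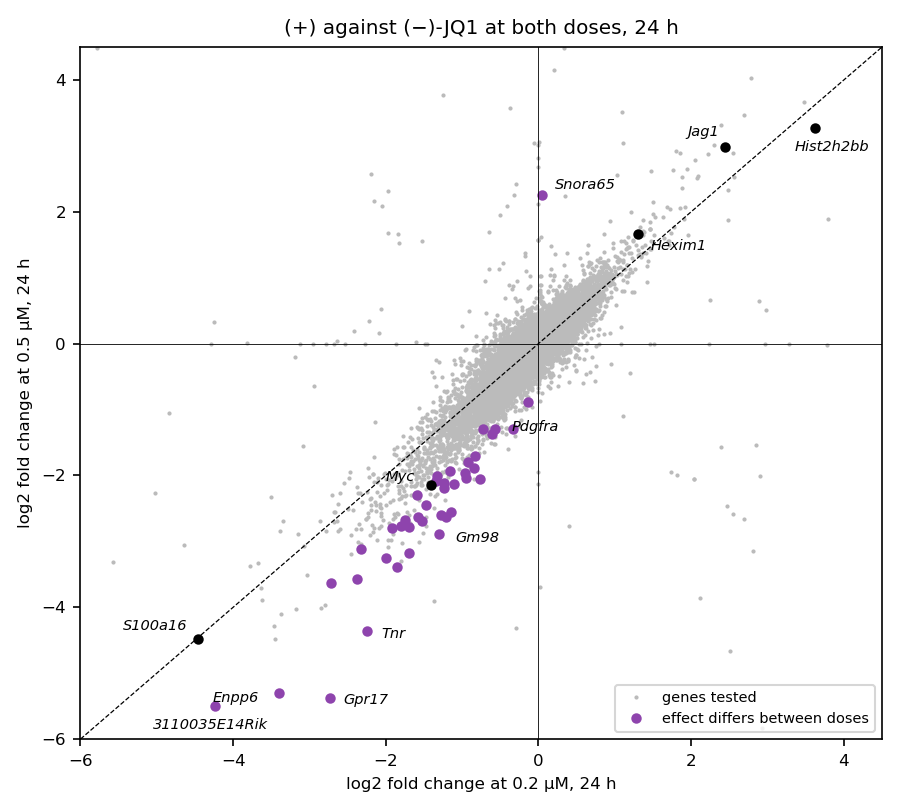
Log2 difference, (+) minus (−)-JQ1, at 0.5 µM against that at 0.2 µM, both at 24 h, for each gene tested; purple points are the 40 genes whose effect differs between doses, the dashed line marks equal effects, and 16 short-RNA genes lie outside the axes. The purple points, apart from Snora65, lie below the line, with Gpr17, Enpp6 and Tnr among the farthest.

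The difference between 24 and 12 h was called in 3 genes (0.0217%): Pcp4 in the higher direction (0.00725%), Ddc and Ccdc3 in the lower (0.0145%). Pcp4, a small calmodulin-binding protein of neurons, averaged 14 ± 2.48 FPKM with (−)-JQ1 and 5.76 ± 0.889 FPKM with (+)-JQ1 at 12 h, and 21.5 ± 4.70 FPKM and 37.8 ± 10.7 FPKM at 24 h. It was lower with (+)-JQ1 at the earlier time (−1.14) and higher at the later one (0.77), and the difference was 1.91 ± 0.32 (adjusted p = 0.0268). The rise of Pcp4 at 24 h did not pass without (+)1, (+)3 or (−)1 (adjusted p of 0.0588 to 0.065), nor in its 6 libraries alone (0.0801). Ddc, the decarboxylase of dopamine and serotonin synthesis, was at 0.143, 0.0501 and 0.149 FPKM against 4.92, 4.10 and 3.67 FPKM at 24 h (−2.23), and its difference between times was −1.39 (adjusted p = 0.00754). At 12 h its means were already apart, at 0.0491 FPKM with (+)-JQ1 and 0.907 FPKM with (−)-JQ1, both low. With a pseudocount of 0.1, a filter of 5 FPKM, weights per library or the 12 libraries alone, no gene passed the test between times. At 12 h, 1 G2 and mitosis gene had fallen (median 0.15), with Top2a at 0.07 and Mki67 at 0.17, and 6 S-phase genes, against 23 and 21 at 24 h. No member of either list passed the test of the difference between times (smallest adjusted p 0.368 and 0.276), and none of the cholesterol list did (0.441), of which 10 had fallen at 12 h. These counts depended on the pairing of the 12-h libraries: same-numbered libraries at 0.2 µM and 12 h deviated together (r of 0.105 to 0.133 in 3 of 3 pairs), and a block on the number within the 12-h libraries, chosen after seeing the data, gave 32 genes, 8 higher and 24 lower. Among them were 6 G2 and mitosis genes, with Tpx2 (−1.59, adjusted p = 0.0176) and Birc5 (−1.43, adjusted p = 0.0117) at the smallest p, and 1 gene each of the S-phase list, Mcm5 (−1.15, adjusted p = 0.0421), and of the cholesterol list, Insig1 (−0.74, adjusted p = 0.031). Jag1 also passed with that block (0.93, adjusted p = 0.0182), and 15 cholesterol genes had fallen at 12 h. The histone list had 44 rises at 12 h and the premyelinating and myelin list 22 falls.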

How the data were processed

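RNA from 24 libraries of mouse neural progenitors was sequenced; 6 of them form the comparison and the other 18 enter the estimate of the spread. The authors deposited 1 value for each gene symbol, read here as FPKM, a unit that neither the labels nor the headers name. Its program, annotation and scaling are not given in the sources used here. FastQC, TopHat2 and the genome build mm9 are named in the submitters' processing notes, without versions. Of 26694 entries, 58 with one of 29 repeated symbols were dropped, leaving 26636 genes. No count test was run, because the values are not counts.

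Values were analysed as log2(FPKM + 1) in limma 3.58.1 (R 4.3.3) with a mean per group for 8 groups, which left 16 residual degrees of freedom, and with moderated variances (trend and robust options). A gene was tested if 3 or more of the 24 libraries reached 1 FPKM, which kept 13801 genes, 210 of them short RNAs. Calls are at a p under 0.05 after Benjamini-Hochberg adjustment across these genes. The code was tested on simulated data first. The alternatives were other scalings, removal of a GC trend (loess, span 0.3), a pseudocount of 0.1, other filters, the compared libraries alone, library weights, a fit with neither trend nor robust option, a block on the replicate number, leaving out libraries and, added after seeing the data, a block within the 12-h libraries.

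The genes named by rule are the 12 called genes that rose most and the 12 that fell most, among genes other than short RNAs whose groups do not overlap and whose higher mean is at least 5 FPKM; in each list the 3 called members with the largest change, or, with fewer called, those and the member with the smallest p; in each difference of effects the 4 largest called genes in each direction at that level; and 11 genes fixed by name. Some genes that the rule names are not reported here. Other genes named were chosen after their values were seen. The members and lists were chosen with earlier results of these data known. Promoters and their coordinates are from RefSeq on GRCm38.p6, matched by symbol for 10036 of the genes tested.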

Additional observations from a re-analysis of the deposited data

Results flagged for a closer look

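The effect of (+)-JQ1 against (−)-JQ1 differed between groups of libraries, by the limma test of the difference itself, in 13 genes described here. At 24 h the effect was stronger at 0.5 than at 0.2 µM for the oligodendrocyte lineage genes Gpr17 (a difference of −2.65 between effects of −5.38 and −2.73), Tnr (−2.12), Enpp6 (−1.91), Gm98 (−1.58), Nfasc (−1.42), Lhfpl3 (−1.04), Ugt8a (−0.96) and Pdgfra (−0.72). The same held for the water channel Aqp4 (−1.55) and for Sema5a (−0.88), a ligand in axon guidance. In these 10 genes the effect at 0.2 µM was itself called, in the same direction.

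At 0.2 µM the effect differed between 24 and 12 h for Pcp4 (1.91), Ccdc3 (−1.24) and Ddc (−1.39). Ccdc3 and Ddc were lower with (+)-JQ1 at both times, with effects of −2.11 and −2.23 at 24 h and of −0.86 and −0.84 at 12 h, while Pcp4 changed sign. At 12 h Ddc averaged 0.0491 FPKM with (+)-JQ1 and 0.907 FPKM with (−)-JQ1, a level at which log2(FPKM + 1) understates a change. With a pseudocount of 0.1 none of these differences between times passed.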

How the results depend on the processing

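Calls of (+) against (−)-JQ1 numbered 2056 in the 6 libraries alone, 426 higher and 1630 lower, beside 4529, 1523 and 3006. Higher calls were 2500 after median-of-ratios scaling, 2480 with equal sums outside short RNAs and 3199 after GC removal; lower calls were 1883 with a filter of 5 FPKM, where 10254 genes were tested. For the dose difference (40 calls), the 12 libraries it compares gave 3, weights per library 17, and leaving out 1 library 31 to 62. The time difference (3 calls) gave 0 in its 12 libraries alone, with a pseudocount of 0.1, a filter of 5 FPKM, and weights. There was 1 call after median-of-ratios scaling and without the 2 libraries with high Mir5105, and 1 to 4 when 1 library was left out. At an unadjusted p under 0.05 limma gave 491, 539, 343 and 815 genes in the 4 settings with 0 calls. With no change in any gene, a share of 0.05 of the genes tested would reach that p. The genes tested numbered 13801, and 10254 with the filter of 5 FPKM, so these counts alone do not single out genes that narrowly missed. Leaving out (−)1 turned Mir5105 from −0.04 to 1.48, within a range of −1.63 to 1.48 over the libraries left out in turn. Why these values moved was not tested.

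Of 127 genes named by rule, 122 kept their direction and call without the 2 libraries with high Mir5105, 110 in the 6 libraries alone, and 117 to 123 when 1 library was left out. Same-numbered libraries did not deviate together within the 6 libraries compared (r of −0.345 to −0.0038). They exceeded 0.1 in 6 of 18 pairs at 24 h, beside 8 of 36 of different number, and in 5 of 48 between times. The numbers were therefore not taken to pair the 24-h libraries. These r cannot show that pairing is absent, because (−)1 and (+)2 deviated together (r = 0.395) under different numbers. At 0.5 µM and 24 h the same-numbered (+) and (−) libraries had r of 0.0458, 0.166 and 0.292. At 12 h same-numbered libraries exceeded 0.1 in 11 of 18 pairs, and in 3 of 3 at 0.2 µM (0.105 to 0.133). A replicate block within the 12-h libraries, chosen after seeing the data, gave 32 calls for the time difference, in place of 3, and 1260 higher and 2919 lower calls at 12 h in place of 1136 and 2710. With the replicate number as a block over all 24 libraries, 4660 genes were called (1586 higher and 3074 lower), 36 for the dose and 4 for the time difference, and 126 of these genes kept their call or lack of one; Dcx passed in addition. The unknown number of reads limits what can be said of genes near 1 FPKM, such as those of mitosis.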

Other observations

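Some genes outside the lists also had an effect that was larger at 0.5 than at 0.2 µM; they were chosen after their values were seen. 1810041L15Rik was at 3.66, 4.24 and 4.61 FPKM with 0.2 µM (+)-JQ1 and at 21.5, 19.2 and 18.4 FPKM with (−)-JQ1, and the effect at 0.5 µM was −3.25 (difference −1.25, limma adjusted p = 0.000217). Slc1a1, a glutamate transporter, fell by 1.47 at 0.2 µM and lay at −2.45 at 0.5 µM (difference −0.98, limma adjusted p = 0.00172). In both genes the (+) and (−) libraries at 0.2 µM were well apart.

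Bc1 and Rpl39 were 2 of the genes that set (−)1 and (+)2 apart. Bc1, a noncoding RNA of neurons, was at 496 FPKM in (+)2 and 399 FPKM in (−)1, and at 4547, 4773, 3298 and 14523 FPKM in (+)1, (+)3, (−)2 and (−)3. Rpl39, a ribosomal protein gene, went the other way, at 425 and 536 FPKM in (+)2 and (−)1 against 61.9 to 110 FPKM in the other 4 libraries.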
